A study of Homo sapiens with 24 samples.

Results

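The expression of 45 interferon-stimulated genes was followed across HEL cells treated with clinical JAK inhibitors. The genes were taken by name as well-known interferon targets, with earlier results of these data known. All 45 were found among the 34213 genes counted, and all 45 were among the 16076 genes with enough counts to test. HEL is a human erythroleukaemia cell line that carries an activating mutation of the kinase JAK2. Cells received ruxolitinib, fedratinib, momelotinib, pacritinib or itacitinib at 500 nM, or the solvent DMSO, and were collected after 4 h or 48 h. Ruxolitinib and momelotinib inhibit JAK1 and JAK2, fedratinib and pacritinib mainly JAK2, and itacitinib mainly JAK1. For every treatment and time there were 2 RNA sequencing libraries, which makes 12 groups and 24 libraries, with total counts of 32153866 to 56618281 per library. The labels call the libraries duplicates and do not say whether they came from separate cultures, so the p-values rest on a spread between libraries that may be technical alone. All libraries came from 1 cell line. In bulk RNA, fewer cells that express a gene and less RNA per cell cannot be told apart.

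Interferons are secreted proteins that warn cells of viral infection. Type I interferons bind the receptor chains IFNAR1 and IFNAR2, which activate the kinases JAK1 and TYK2. These phosphorylate STAT factors, which join IRF9 in a complex that binds the interferon-stimulated response element (ISRE). Interferon gamma acts through JAK1 and JAK2 and a STAT dimer that binds the gamma-activated site (GAS). The induced genes encode proteins that block viral entry, translation, RNA synthesis or release, together with sensors of viral RNA and transcription factors. JAK inhibitors act on this same kinase relay, and many of the genes are also transcribed at a basal level without added interferon.

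The promoters of the genes carry these elements far more often than promoters at large. The ISRE core was searched as GAAANNGAAA and the GAS as TTCNNNGAA, on both strands, from 250 bases before to 50 bases after the start in RefSeq promoters of build GRCh38.p14. Of the 45 genes, 36 were matched there. The ISRE core was in 23 of the 36 (63.9%), against 3.57% of 35116 promoters, and the GAS in 9 of the 36 (25.0%), against 7.66%. The searches can hit the same bases, as in IFITM1, BST2 and EPSTI1 below. A match is a description and not a proven site. Not matched were IFIT2, IFITM2, MX2, OAS2, DHX58, IRF7, USP18, TRIM22 and GBP2. Promoter stretches are shown for 7 of the genes that fell or rose with inhibitors in the results that follow and that hold a match. Matches in IFI6, IFI27, IFI44, ISG20, IFIH1, SAMD9, PARP14 and DTX3L, which fell or rose too, are not shown. PARP9, CMPK2, SAMD9L, XAF1 and SP110 also fell or rose, and their promoters held neither element in this window. Capitals mark the matches, and TTTC blocks are the ISRE core read on the other strand. Each stretch is written 5′ to 3′ along its gene.
IFITM1, chr11:313960-314043, plus strand: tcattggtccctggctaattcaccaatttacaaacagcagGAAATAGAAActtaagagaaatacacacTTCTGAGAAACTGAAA
IFITM3, chr11:320861-320940, minus strand: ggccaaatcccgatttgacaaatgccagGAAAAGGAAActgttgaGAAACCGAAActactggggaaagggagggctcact
BST2, chr19:17405671-17405780, minus strand: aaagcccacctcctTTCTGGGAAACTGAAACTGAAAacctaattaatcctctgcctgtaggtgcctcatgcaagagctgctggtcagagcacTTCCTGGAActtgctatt
EPSTI1, chr13:42992262-42992321, minus strand: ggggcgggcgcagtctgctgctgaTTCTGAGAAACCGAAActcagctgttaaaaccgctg
IFIT3, chr10:89327827-89327896, plus strand: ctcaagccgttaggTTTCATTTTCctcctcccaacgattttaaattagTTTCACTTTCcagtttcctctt
GBP1, chr1:89065299-89065358, minus strand: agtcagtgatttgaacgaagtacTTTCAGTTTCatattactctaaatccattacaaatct
IRF1, chr5:132490864-132490923, minus strand: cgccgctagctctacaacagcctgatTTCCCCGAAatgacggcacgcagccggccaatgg

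IFIT3 and IFITM3 hold 2 ISRE cores each, and IRF1 holds a GAS and no ISRE core in this window. In IFITM1, BST2 and EPSTI1 a GAS match runs into an ISRE core, so that both elements share bases. BST2 holds a second GAS match closer to its start.

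Interferons themselves were nearly absent from the RNA. IFNB1 had 0 counts in the 24 libraries together, and the highest sum for any of the 13 IFNA genes was 1 count. Of 21 interferon genes, only IFNK and IFNL3 had enough counts to test, with means of 0.272 and 0.384 CPM (counts scaled to library size). The receptor chains were present, IFNAR1 at 15.9 and IFNAR2 at 19.1 CPM per kb of exon. So were the kinases JAK1, TYK2 and JAK2, at 46.9, 35.8 and 30.2 CPM per kb, and the factor STAT2, at 8.60 CPM per kb.

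The 45 genes together took 0.135 to 0.152% of the counts of a library. Their median level over all libraries was 2.86 CPM per kb, against 3.32 CPM per kb over all tested genes. IFITM2 was the highest at 133 CPM per kb, followed by IFI6 at 42.8, IFITM3 at 40.5, ADAR at 37.5 and ISG15 at 20.3 CPM per kb. The neighbours IFI6, IFITM3 and ADAR in this order overlapped in their libraries. ADAR, an RNA-editing enzyme with a constitutive form, gave 25.0% of all counts of the 45 genes. At the other end, 7 genes had a mean under 1 CPM: IRF9, ISG20, LGALS3BP, BST2, IFI27, IFI44L and OAS2. OAS2 had 0 counts in 2 libraries and at most 14, so no change in it could be resolved at this depth.

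**Figure D1:**
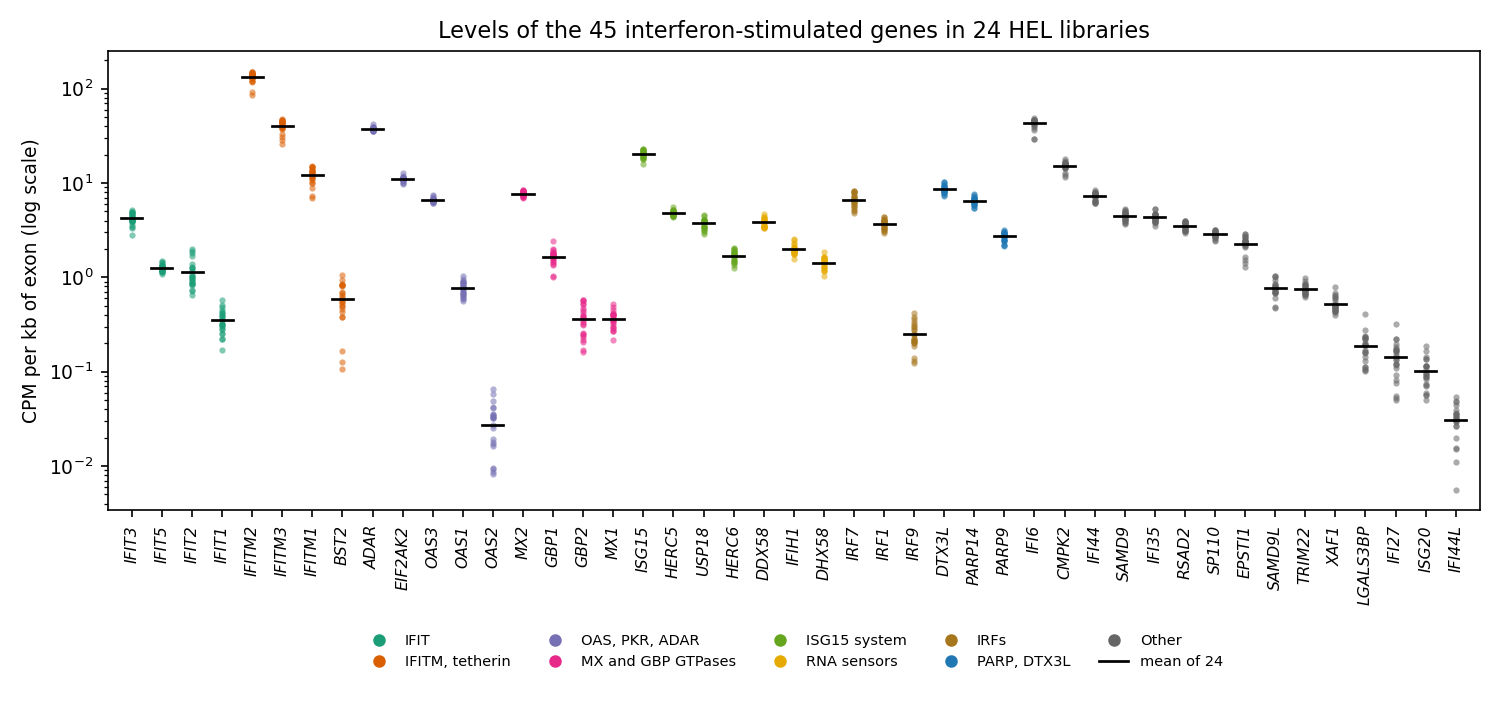
Level of each gene in each of the 24 libraries, in CPM per kb of exon on a log scale, grouped by role and ordered by level within a role. Points are libraries and bars are means of 24; libraries at 0 counts (2 for OAS2) cannot be drawn. IFITM2, at a mean of 133, is the highest and OAS2, at 0.0271, the lowest.

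Erythroid and megakaryocyte markers were present in all libraries, though not all at high levels. HBG2 was at 1713 to 2941 CPM, GATA1 at 175 to 233 CPM and ITGA2B at 710 to 905 CPM. Other such markers varied more between libraries, HBA1 from 253 to 926 CPM, HBA2 from 155 to 756 CPM, HBZ from 5.38 to 34.2 CPM and GP6 from 5.55 to 39.4 CPM. The megakaryocyte gene PF4 was low, with 3.78 CPM in its highest library. That is under the highest levels of CD79A and NKG7, markers of other lineages given below. Among markers of other lineages, the T cell genes CD3D and CD3E, the B cell gene MS4A1, CD14, EPCAM and COL1A2 stayed under 0.32 CPM. LYZ, at 33.4 to 40.9 CPM, and PECAM1, at 127 to 183 CPM, were present in all libraries, and so at lower levels were CD79A (3.25 to 7.98 CPM), NKG7 (1.67 to 4.55 CPM), KRT18 (3.21 to 8.36 CPM), CDH5 (2.41 to 14.5 CPM), KRT8 (0.329 to 1.04 CPM) and COL1A1 (0.245 to 1.02 CPM). Mitochondrial rRNA took 0.00715 to 0.128% of counts and the signal recognition particle RNA copies 2.42 to 4.76%. At 4 h the signal recognition particle share was 3.2 and 3.01% for ruxolitinib, 3.33 and 2.8% for fedratinib, 3.98 and 3.25% for momelotinib, 3.95 and 3.84% for pacritinib and 3.33 and 3.57% for itacitinib, against 2.42 and 2.52% with DMSO. At 48 h it was 3.92 and 3.99% for ruxolitinib, 4.67 and 4.42% for fedratinib, 4.01 and 3.78% for momelotinib, 4.52 and 4.76% for pacritinib and 3.97 and 3.1% for itacitinib, against 3.05 and 3.36% with DMSO. The mitochondrial share at 48 h was 0.128 and 0.115% with pacritinib and 0.0337 to 0.111% with the other inhibitors, against 0.0586 and 0.0912% with DMSO. At 4 h it was 0.0141 to 0.0611% with the inhibitors, against 0.0181 and 0.00715% with DMSO. The part of RNA quality in the changes described here was not tested.

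Most calls among the interferon-stimulated genes were of lower expression, and single genes went both ways. Against DMSO of the same time, 25 of the 45 genes were called in at least 1 of 10 comparisons (edgeR quasi-likelihood test, Benjamini-Hochberg adjusted p under 0.05 over all 16076 genes). There were 52 calls in 450 tests (11.6%), 39 lower and 13 higher, and 5 of the 52 reached 2-fold. Over all genes 10.2% of tests were called, so the number of calls was near the background. Of the calls 75% were lower, against 55.1% over all genes. Of the 25 genes, 6 were called in both directions, and 20 genes were called nowhere. The 25 are 55.6% of the 45, against 53.1% of all genes called at least once. At 48 h 21 of the 45 were called (46.7%, against 36.3% of all genes), and at 4 h 13 (28.9%, against 34.5%).

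With ruxolitinib at 4 h, 1 gene was higher and 4 were lower, when 3.42% of all tested genes were higher and 5.04% lower. With momelotinib at 4 h it was 1 higher and 1 lower, against backgrounds of 2.21% and 3.79%. Pacritinib at 4 h gave 2 higher and 8 lower, against backgrounds of 13.1% and 17.4%. By edgeR, fedratinib at 4 h gave 0 higher and 0 lower (0.616% and 0.97% of all genes), with 6 genes at an unadjusted p under 0.05 and 0 calls by DESeq2. Itacitinib at 4 h also gave 0 and 0 by edgeR (0.672% and 0.106%), with 3 genes at an unadjusted p under 0.05 and 0 calls by DESeq2. Read against these backgrounds, the lower calls at 4 h were near the share among all genes for pacritinib (17.8% of the 45) and somewhat above it for ruxolitinib (8.89%). Of the 4 lower calls of ruxolitinib at 4 h, 2 or 3 were left when 1 library was dropped, and 2 without DMSO replicate 1, DMSO replicate 2 or ruxolitinib replicate 1.

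At 48 h, ruxolitinib gave 6 higher and 9 lower genes, against 12.5% and 13.2% of all genes. Fedratinib gave 1 higher and 7 lower, against 3.66% and 4.04%. Pacritinib gave 1 higher and 10 lower, against 8.26% and 10.1%. Momelotinib gave 1 higher and 0 lower, against 0.995% and 0.946%. Itacitinib gave 0 and 0 by edgeR, against 0.0871% and 0.355%, with 6 genes at an unadjusted p under 0.05 and 0 calls by DESeq2. With all libraries, the lower calls of ruxolitinib, fedratinib and pacritinib were thus a larger share of the 45 than of all genes. Their higher calls were near or under the background. Of the lower calls of fedratinib, only that of EPSTI1 held with each library left out. The median log2 fold change of the 45 was -0.04 with ruxolitinib, -0.14 with fedratinib and -0.05 with pacritinib at 48 h, beside 0.01, 0.00 and 0.00 over all genes. With fedratinib at 48 h the log2 fold change was below 0 for 38 of the 45 genes (84.4%), against 49.9% of all genes, most of them not called. The 5 comparisons of a time share the same 2 DMSO libraries.

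**Figure D2:**
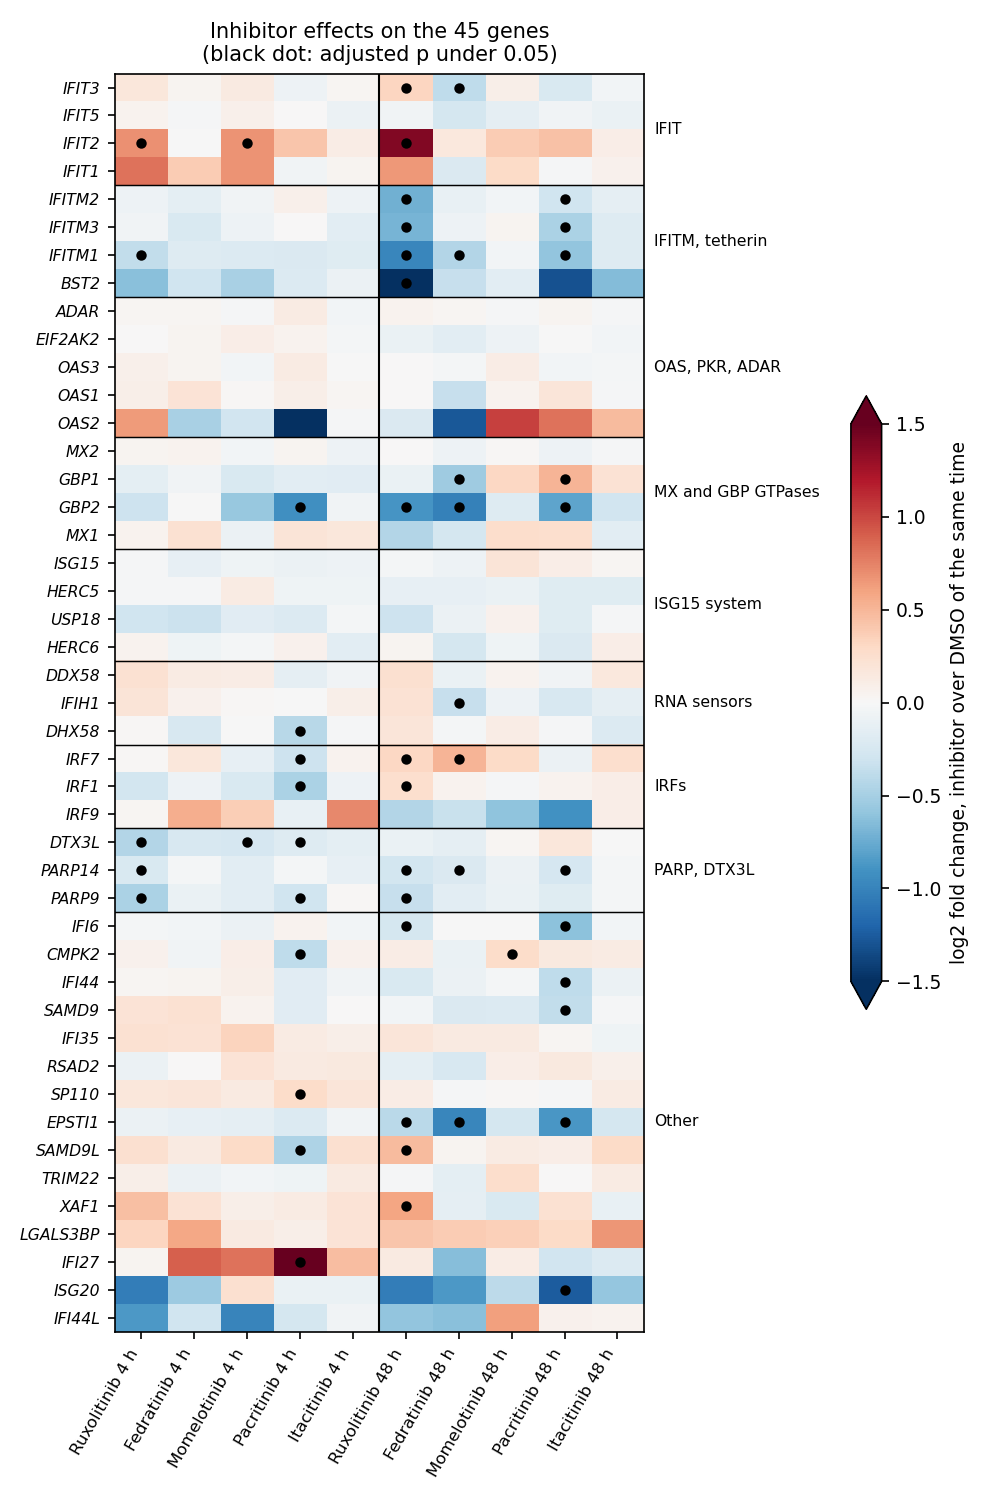
Log2 fold change of the 45 genes (rows, by role) with each inhibitor over DMSO of the same time (columns), from -1.5 (blue) to 1.5 (red), with larger values at the end colours. Black dots mark adjusted p under 0.05: 39 of the 52 lie on lower calls, among them 9, 7 and 10 in the 48 h columns of ruxolitinib, fedratinib and pacritinib, and none lies in the itacitinib columns.

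The IFITM genes fell with ruxolitinib and pacritinib at 48 h, and BST2 fell with ruxolitinib. IFITM1, IFITM2 and IFITM3 sit in endosomal and surface membranes and hinder fusion of viruses, and BST2 (tetherin) holds new virions on the cell. With ruxolitinib at 48 h, 4 of the 4 were lower. IFITM1 (ENSG00000185885) had 7.85 and 7.54 CPM with ruxolitinib, against 16.3 and 14.1 CPM with DMSO (log2 fold change -0.98 ± 0.11 SE, adjusted p = 3.13e-08). IFITM2 (ENSG00000185201) had 143 and 133 CPM with ruxolitinib, against 233 and 220 CPM with DMSO (-0.72 ± 0.06, adjusted p = 2.07e-11). IFITM3 (ENSG00000142089) had 38.7 and 35.3 CPM with ruxolitinib, against 60.4 and 59.5 CPM with DMSO (-0.69 ± 0.07, adjusted p = 1.04e-09). For these 3 genes both ruxolitinib libraries at 48 h were below every other library of the series.

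BST2 was at the edge of detection, with 5 and 4 counts under ruxolitinib at 48 h and 22 and 35 counts under DMSO, or 0.141 and 0.12 CPM against 0.597 and 0.945 CPM (-2.53 ± 0.57, adjusted p = 0.000897). Its promoter, shown above, holds a pair of ISRE cores that overlap.

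Pacritinib at 48 h lowered the 3 IFITM genes as well, by smaller amounts. IFITM1 had 10.8 and 9.46 CPM with pacritinib, against 16.3 and 14.1 CPM with DMSO (-0.59 ± 0.11, adjusted p = 0.000213). IFITM3 had 41.3 and 44.6 CPM with pacritinib, against 60.4 and 59.5 CPM with DMSO (-0.48 ± 0.07, adjusted p = 3.92e-06). IFITM2 had 187 and 183 CPM with pacritinib, against 233 and 220 CPM with DMSO (-0.29 ± 0.06, adjusted p = 0.000482). The libraries of the 2 groups did not overlap for any of the 3. Fedratinib at 48 h lowered IFITM1, with 10.9 and 11.5 CPM against 16.3 and 14.1 CPM with DMSO (-0.44 ± 0.11, adjusted p = 0.00864), but the call ended without DMSO replicate 1 (adjusted p = 0.151) or fedratinib replicate 1 (adjusted p = 0.119). With momelotinib and itacitinib at 48 h, IFITM1 had 15.1 and 14.5 CPM and 13.8 and 12.9 CPM, and none of the 4 genes was called. BST2 had 0.185 and 0.421 CPM with pacritinib at 48 h and was not called, except without pacritinib replicate 2 (-2.05, adjusted p = 0.042).

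At 4 h, IFITM1 was the only gene of this group called, and only with ruxolitinib. It had 12.5 and 12.3 CPM with ruxolitinib, against 16.1 and 15.8 CPM with DMSO (-0.36 ± 0.11, adjusted p = 0.0259). This call ended when any 1 of the 4 libraries was left out (adjusted p = 0.114 to 0.156). IFITM2 had 217 and 199 CPM with ruxolitinib, against 216 and 221 CPM with DMSO at 4 h, and the libraries overlapped. The 3 genes are neighbours on chromosome 11, IFITM2 from 307631 to 315272, IFITM1 from 313506 to 315272 and IFITM3 from 319669 to 327537 (GRCh38, GENCODE 29). In that annotation 32.5% of the exon bases of IFITM1 are shared with IFITM2. The 3 genes are also related in sequence, to a degree not measured here, so the split of reads among the 3 is uncertain.

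The IFIT genes encode proteins that bind foreign RNA and block its translation. Against the lowered IFITM genes, IFIT2 rose with ruxolitinib. IFIT2 (ENSG00000119922) had 7.80 and 8.14 CPM with ruxolitinib, against 3.42 and 2.67 CPM with DMSO at 48 h (1.39 ± 0.18, adjusted p = 4.06e-07). Both ruxolitinib libraries at 48 h were above every other library of the series. At 4 h it had 5.12 and 7.41 CPM with ruxolitinib and 5.61 and 6.84 CPM with momelotinib, against 3.50 and 4.28 CPM with DMSO. Both were called (0.69 ± 0.18, adjusted p = 0.0114, and 0.67 ± 0.18, adjusted p = 0.0175). The call of ruxolitinib at 4 h ended when DMSO replicate 1 was dropped (0.55, adjusted p = 0.155) and when ruxolitinib replicate 2 was dropped (0.39, adjusted p = 0.362). The call of momelotinib ended without DMSO replicate 1 (adjusted p = 0.202) or momelotinib replicate 2 (adjusted p = 0.189). Of the exon bases of IFIT2, 10.3% are shared with other genes, among them LIPA on the opposite strand.

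IFIT3, the partner that stabilises IFIT1, moved in opposite directions with 2 inhibitors. It had 13.7 and 12.9 CPM with ruxolitinib, against 11.1 and 10.3 CPM with DMSO at 48 h (0.32 ± 0.11, adjusted p = 0.0283). It had 9.10 and 7.42 CPM with fedratinib, against the same DMSO libraries (-0.38 ± 0.11, adjusted p = 0.0351). The call of ruxolitinib ended with any 1 of the 4 libraries left out (adjusted p = 0.0585 to 0.198) and by DESeq2. The call of fedratinib ended without DMSO replicate 1, DMSO replicate 2 or fedratinib replicate 2 (adjusted p = 0.0917 to 0.346). IFIT1 had 2.63 and 2.22 CPM with ruxolitinib at 48 h, against 1.93 and 1.16 CPM with DMSO, and was not called with all libraries. It was called higher when DMSO replicate 1 was dropped (1.06). IFIT5 was called nowhere, and its highest group mean was 1.2 times its lowest.

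The guanylate-binding proteins are GTPases that attack intracellular pathogens and are strongly induced by interferon gamma. GBP2 (ENSG00000162645) was lower in 4 of the 10 comparisons, as were IFITM1 and PARP14, and no gene was lower in more. At 48 h it had 1.07 and 1.53 CPM with ruxolitinib, 1.01 and 1.35 CPM with fedratinib and 1.5 and 1.29 CPM with pacritinib, against 2.33 and 2.46 CPM with DMSO. Every library of the 3 treatments was below both DMSO libraries. The log2 fold changes were -0.88 ± 0.25 with ruxolitinib (adjusted p = 0.00754), -1.01 ± 0.25 with fedratinib (adjusted p = 0.00943) and -0.80 ± 0.24 with pacritinib (adjusted p = 0.021). The call of ruxolitinib ended without ruxolitinib replicate 1 (adjusted p = 0.132), that of fedratinib without DMSO replicate 2 (adjusted p = 0.0749) or fedratinib replicate 1 (adjusted p = 0.155), and that of pacritinib with any 1 of the 4 libraries left out (adjusted p = 0.0562 to 0.131).

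At 4 h, GBP2 had 2.02 and 1.61 CPM with pacritinib, against 3.29 and 3.54 CPM with DMSO (-0.91 ± 0.22, adjusted p = 0.00202), and this call held with each library left out. GBP1 (ENSG00000117228) went different ways at 48 h, with 5.11 and 5.08 CPM under fedratinib and 12.1 and 8.94 CPM under pacritinib, against 7.35 and 7.34 CPM under DMSO. It was lower with fedratinib (-0.53 ± 0.13, adjusted p = 0.0102), a call that ended with any 1 of the 4 libraries left out (adjusted p = 0.0531 to 0.0826). It was higher with pacritinib (0.51 ± 0.12, adjusted p = 0.00307), but not without pacritinib replicate 1 (0.27, adjusted p = 0.214). The dynamin-like GTPases MX1 and MX2, which block viral nucleocapsids, were called in no comparison with DMSO with all libraries. MX1 was called lower with ruxolitinib at 48 h when ruxolitinib replicate 1 was dropped (-0.84).

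PARP9 and DTX3L form a complex of an ADP-ribosyltransferase and a ubiquitin ligase, and PARP14 is a related ADP-ribosyltransferase that modifies STAT signalling. They were among the genes already lower at 4 h. With ruxolitinib at 4 h, 3 of the 3 were lower. DTX3L (ENSG00000163840) had 42.9 and 43.3 CPM with ruxolitinib, against 60.2 and 57 CPM with DMSO (-0.44 ± 0.07, adjusted p = 2.24e-05). PARP9 (ENSG00000138496) had 19.2 and 19.6 CPM with ruxolitinib, against 27.4 and 26.7 CPM with DMSO (-0.47 ± 0.08, adjusted p = 7.15e-05). PARP14 (ENSG00000173193) had 57.6 and 61.6 CPM with ruxolitinib, against 70.1 and 70.1 CPM with DMSO (-0.23 ± 0.07, adjusted p = 0.0199). The groups did not overlap for any of the 3. The calls of DTX3L and PARP9 held with each library left out, while that of PARP14 ended without DMSO replicate 1, DMSO replicate 2 or ruxolitinib replicate 1 (adjusted p = 0.0835 to 0.229) and with the libraries of 1 time point.

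The other inhibitors moved these genes at 4 h by less. Momelotinib lowered DTX3L, with 47.2 and 50.8 CPM against 60.2 and 57 CPM with DMSO (-0.26 ± 0.07, adjusted p = 0.0153), but not without DMSO replicate 1 or momelotinib replicate 1 (adjusted p = 0.142 in both). Pacritinib lowered PARP9, with 21.9 and 21.9 CPM against 27.4 and 26.7 CPM with DMSO (-0.30 ± 0.08, adjusted p = 0.00261). It also lowered DTX3L (54.6 and 47.8 CPM, -0.19 ± 0.07, adjusted p = 0.0261), a call lost without DMSO replicate 1 (-0.16, adjusted p = 0.166) or pacritinib replicate 2 (-0.09, adjusted p = 0.449). DTX3L and PARP9 start next to each other on opposite strands of chromosome 3, PARP9 from 122527924 to 122564577 and DTX3L from 122564238 to 122575203, with 3.7% of DTX3L's exon bases shared.

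At 48 h, PARP14 was lower with 3 inhibitors. It had 65.5 and 62.0 CPM with ruxolitinib, 64.5 and 68.9 CPM with fedratinib and 66.1 and 63.9 CPM with pacritinib, against 74.7 and 79.8 CPM with DMSO. No treated library reached a DMSO library. The log2 fold changes were -0.28 ± 0.07 with ruxolitinib (adjusted p = 0.00156), -0.21 ± 0.06 with fedratinib (adjusted p = 0.0393) and -0.25 ± 0.07 with pacritinib (adjusted p = 0.00644). The call of fedratinib ended without DMSO replicate 1, DMSO replicate 2 or fedratinib replicate 1 (adjusted p = 0.0567 to 0.329), and that of pacritinib without DMSO replicate 2 or pacritinib replicate 2 (adjusted p = 0.0915 and 0.057). PARP9 was lower with ruxolitinib, at 22.1 and 19.8 CPM against 26.1 and 27.0 CPM with DMSO (-0.34 ± 0.08, adjusted p = 0.00106). DTX3L had 46.3 and 48.6 CPM with ruxolitinib at 48 h, against 50.6 and 51.4 CPM with DMSO, and was not called.

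Of the transcription factors, IRF1 is an early target of interferon gamma and IRF7 amplifies the interferon response. IRF1 (ENSG00000125347) had 24.3 and 23.2 CPM with pacritinib, against 32 and 34.0 CPM with DMSO at 4 h (-0.47 ± 0.10, adjusted p = 0.000268). With ruxolitinib at 4 h it had 27.6 and 27.0 CPM and was not called (-0.28 ± 0.10, adjusted p = 0.0718), but it was without the low-count filter (adjusted p = 0.0173) and with the libraries of 1 time point (adjusted p = 0.0479). At 48 h the ruxolitinib libraries, at 34.1 and 30.4 CPM, were above the DMSO libraries, at 26.0 and 28.1 CPM (0.25 ± 0.10, adjusted p = 0.0495). This last call ended under DESeq2, under RLE scaling and without DMSO replicate 1, DMSO replicate 2 or ruxolitinib replicate 1 (adjusted p = 0.0759 to 0.384 without a library). Of the exon bases of IRF1, 22.0% are shared with genes on the opposite strand.

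IRF7 (ENSG00000185507) was also called in both directions, though by different inhibitors. For no inhibitor was its effect called different between the times. At 4 h it had 15.7 and 14.8 CPM with pacritinib, against 19.3 and 18.8 CPM with DMSO (-0.32 ± 0.11, adjusted p = 0.0223). At 48 h it had 21.5 and 18 CPM with fedratinib (0.51 ± 0.11, adjusted p = 0.00271) and 17.3 and 16.9 CPM with ruxolitinib (0.31 ± 0.11, adjusted p = 0.0377), against 14.2 and 13.5 CPM with DMSO. The DMSO level itself was lower at 48 h than at 4 h, and the fedratinib libraries stayed near the DMSO libraries of 4 h. The call of pacritinib ended without DMSO replicate 1, DMSO replicate 2 or pacritinib replicate 2 (adjusted p = 0.072 to 0.161). That of fedratinib ended without DMSO replicate 2 (adjusted p = 0.0588) or fedratinib replicate 1 (adjusted p = 0.127), and that of ruxolitinib with any 1 of the 4 libraries left out (adjusted p = 0.0892 to 0.196) and by DESeq2. IRF9, a DNA-binding partner of STAT2, was under 1.6 CPM in all libraries and was not called. Of the exon bases of IRF9, 48.4% are shared with AL136295.5 on the same strand, so its counted level is uncertain.

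Each of 2 RNA sensors was called in 1 comparison with DMSO. DHX58 (LGP2) had 4.43 and 3.96 CPM with pacritinib, against 6.34 and 4.96 CPM with DMSO at 4 h (-0.42 ± 0.15, adjusted p = 0.0382). The call ended under DESeq2, without the low-count filter, and without DMSO replicate 1 (-0.25, adjusted p = 0.366), pacritinib replicate 1 (-0.50, adjusted p = 0.0548) or pacritinib replicate 2 (-0.33, adjusted p = 0.232). IFIH1 (MDA5) had 9.44 and 8.01 CPM with fedratinib, against 11.4 and 10.7 CPM with DMSO at 48 h (-0.35 ± 0.11, adjusted p = 0.0387). It lost its call under DESeq2, without the low-count filter, and without DMSO replicate 1, DMSO replicate 2 or fedratinib replicate 2 (adjusted p = 0.0999 to 0.323). DDX58 (RIG-I) was called in no comparison with all libraries. With ruxolitinib at 48 h it was called higher with the stricter filter (0.24, adjusted p = 0.0488), with the libraries of 1 time point (0.25, adjusted p = 0.0363) and without DMSO replicate 2 (0.34, adjusted p = 0.0371).

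EPSTI1, an interferon-induced gene first described in epithelial-stromal interaction, was the member lowered most by fedratinib among those above 5 CPM. EPSTI1 (ENSG00000133106) had 6.35 and 7.55 CPM with fedratinib, 6.93 and 8.10 CPM with pacritinib and 10.5 and 10.4 CPM with ruxolitinib, against 13.3 and 14.2 CPM with DMSO at 48 h. No treated library reached a DMSO library, and the fedratinib and pacritinib libraries were below every other library of the series. The log2 fold changes were -0.98 ± 0.11 (adjusted p = 4.71e-07), -0.87 ± 0.11 (adjusted p = 1.02e-06) and -0.40 ± 0.11 (adjusted p = 0.0055) in that order of inhibitors. The ruxolitinib call ended without DMSO replicate 2 (adjusted p = 0.0622).

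IFI6, a small membrane protein that protects against viral replication and apoptosis, fell with pacritinib at 48 h. It had 25.0 and 25.3 CPM with pacritinib, against 40.5 and 36.4 CPM with DMSO (-0.61 ± 0.07, adjusted p = 2.97e-07), and these were the lowest libraries of the series. With ruxolitinib it had 31.5 and 32.7 CPM (-0.26 ± 0.07, adjusted p = 0.00705), a call that ended when DMSO replicate 1 was dropped (-0.18, adjusted p = 0.16) and when ruxolitinib replicate 1 was dropped (adjusted p = 0.0698). CMPK2, a mitochondrial nucleotide kinase, had 49.8 and 51.9 CPM with pacritinib, against 64.7 and 67.4 CPM with DMSO at 4 h (-0.38 ± 0.06, adjusted p = 4.57e-06). Its neighbour RSAD2 (viperin), which starts beside it on the opposite strand of chromosome 2, had 18.6 and 16.1 CPM with pacritinib, against 16.3 and 15.4 CPM with DMSO, and was not called. At 48 h CMPK2 had 76.7 and 73.2 CPM with momelotinib, against 62.4 and 61.9 CPM with DMSO (0.27 ± 0.06, adjusted p = 0.00859), but not without DMSO replicate 1, DMSO replicate 2 or momelotinib replicate 1 (adjusted p = 0.0755 to 0.192).

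SAMD9 and SAMD9L, neighbours on chromosome 7 that restrain growth and poxviruses, were not called together in any comparison with DMSO. SAMD9L had 3.36 and 3.44 CPM with pacritinib, against 4.35 and 4.98 CPM with DMSO at 4 h (-0.46 ± 0.16, adjusted p = 0.0279). It had 7.46 and 7.30 CPM with ruxolitinib, against 5.75 and 4.91 CPM with DMSO at 48 h (0.47 ± 0.15, adjusted p = 0.0184). The pacritinib call ended under DESeq2 and without DMSO replicate 2, pacritinib replicate 1 or pacritinib replicate 2 (adjusted p = 0.0983 to 0.236). The ruxolitinib call ended without DMSO replicate 2, ruxolitinib replicate 1 or ruxolitinib replicate 2 (adjusted p = 0.0667 to 0.195). SAMD9 had 26.8 and 25.2 CPM with pacritinib, against 32 and 34.9 CPM with DMSO at 48 h (-0.37 ± 0.08, adjusted p = 0.00165).

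XAF1, which promotes apoptosis, had 4.49 and 5.29 CPM with ruxolitinib, against 3.28 and 3.19 CPM with DMSO at 48 h (0.59 ± 0.17, adjusted p = 0.00803). The call ended when DMSO replicate 2 was dropped (adjusted p = 0.0617) and when ruxolitinib replicate 2 was dropped (adjusted p = 0.12), and 38.3% of its exon bases are shared with PRAL on the opposite strand. SP110, a nuclear body protein, had 21.8 and 19.4 CPM with pacritinib, against 16.8 and 17.2 CPM with DMSO at 4 h (0.28 ± 0.08, adjusted p = 0.0125), but not without DMSO replicate 1, DMSO replicate 2 or pacritinib replicate 1 (adjusted p = 0.0536 to 0.192). Of its exon bases 20.9% are shared with other genes. IFI44 had 12.5 and 12.4 CPM with pacritinib, against 16.4 and 15.9 CPM with DMSO at 48 h (-0.38 ± 0.11, adjusted p = 0.0111), but not without DMSO replicate 1, pacritinib replicate 1 or pacritinib replicate 2 (adjusted p = 0.0564 to 0.0691).

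Large fold changes on few counts came from genes near 1 CPM. IFI27 had 0.922 and 1.34 CPM with pacritinib, against 0.483 and 0.217 CPM with DMSO at 4 h (1.74 ± 0.53, adjusted p = 0.0124). It was not called without DMSO replicate 2 (adjusted p = 0.194) or pacritinib replicate 2 (adjusted p = 0.119). ISG20, an exonuclease of viral RNA, had 0.369 and 0.552 CPM with pacritinib, against 1.38 and 0.837 CPM with DMSO at 48 h (-1.25 ± 0.42, adjusted p = 0.0354). It lost its call under DESeq2 and without DMSO replicate 1 (-0.85, adjusted p = 0.326), pacritinib replicate 1 (adjusted p = 0.235) or pacritinib replicate 2 (adjusted p = 0.0614).

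**Figure D3:**
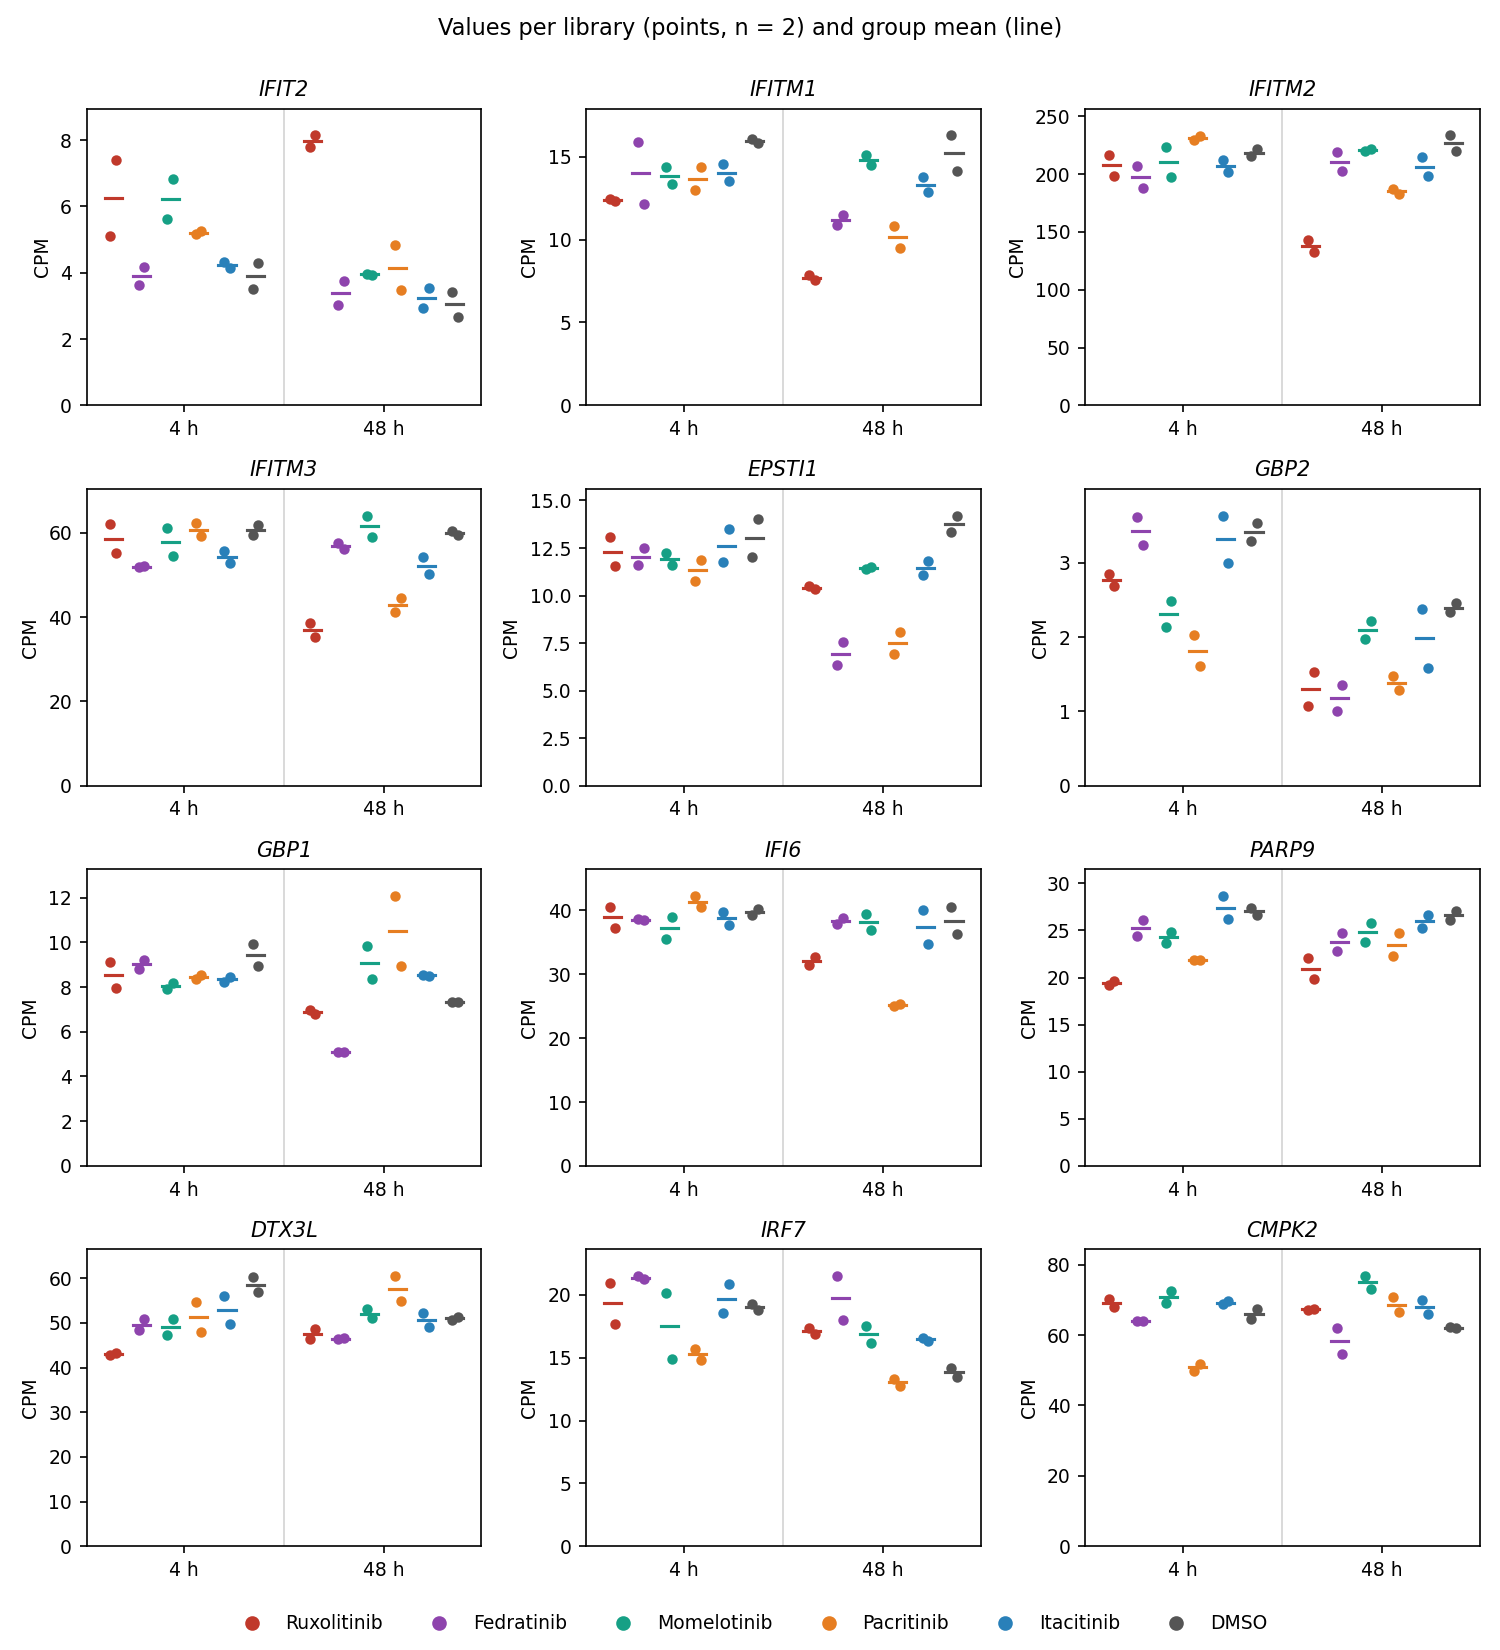
CPM of 12 genes in each library (points) with the mean of each group of 2 (lines), for the inhibitors and DMSO at 4 h and 48 h; axes start at 0. The ruxolitinib libraries at 48 h stand highest for IFIT2 (7.80 and 8.14) and lowest for IFITM1, IFITM2 and IFITM3, and the pacritinib libraries at 48 h lowest for IFI6 (25.0 and 25.3).

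Some groups of the antiviral programme held no call against DMSO. Genes without a call were common, since 55.6% of the 45 genes and 53.1% of all tested genes were called at least once. None of the 5 genes of the OAS, PKR and ADAR group, which detect or edit double-stranded RNA, was called in the 10 comparisons with all libraries. The same held for the 4 genes of the ISG15 group, the ubiquitin-like ISG15, its ligase HERC5, the related HERC6 and the ISG15 protease USP18. Exceptions came with a library dropped. USP18 with ruxolitinib at 48 h was called lower when DMSO replicate 2 (-0.42) or ruxolitinib replicate 2 (-0.53) of 48 h was dropped. EIF2AK2 (PKR) with momelotinib at 4 h was called higher when momelotinib replicate 1 was dropped (0.21). For well-measured genes the intervals were narrow. The 95% intervals of the log2 fold change over the 10 comparisons reached from -0.13 to 0.21 for ADAR, -0.17 to 0.24 for OAS3, -0.18 to 0.16 for MX2 and -0.32 to 0.39 for ISG15. ADAR with pacritinib at 4 h was called higher under DESeq2 (0.13, adjusted p = 0.0181), RLE scaling (adjusted p = 0.038) and the stricter filter (adjusted p = 0.0297), and without pacritinib replicate 1 (adjusted p = 0.0336). The same 20 uncalled genes include IFI44L, OAS2, IRF9 and LGALS3BP, whose low counts leave wide intervals.

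Of the 17 genes called lower at least once and matched to a promoter, 13 (76.5%) held an ISRE core. It was in 3 of 8 (37.5%) of those called higher at least once and in 9 of 16 (56.2%) of those called nowhere. The GAS was in 5 of 17 (29.4%), 2 of 8 (25.0%) and 3 of 16 (18.8%). These sets were formed after the calls were known, some genes are in both directions, and the difference was not tested. They leave out genes without a matched promoter. Of the 10 genes called higher these were IFIT2 and IRF7, and IFIT2 was the one most raised by ruxolitinib. Of the 21 called lower they were GBP2, IFITM2, DHX58 and IRF7.

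Between the times under DMSO, 1 of the 45 genes was called. In DMSO at 48 h against DMSO at 4 h, 0 were higher and 1 was lower, against 4.04% and 4.12% of all genes. By edgeR, 11 of the 45 had an unadjusted p under 0.05. IRF7 had 14.2 and 13.5 CPM at 48 h, against 19.3 and 18.8 CPM at 4 h (-0.46 ± 0.11, adjusted p = 0.00585), a call that ended without DMSO 48 h replicate 2 (adjusted p = 0.0789).

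The difference between the effects at 48 h and at 4 h was tested within the same fit. For ruxolitinib, 2 genes had a higher and 3 a lower effect at 48 h, against 4.32% and 4.4% of all genes. The IFITM genes were the lower ones, IFITM2 (-0.65 ± 0.08, adjusted p = 1.35e-06), IFITM3 (-0.64 ± 0.09, adjusted p = 1.31e-05) and IFITM1 (-0.62 ± 0.16, adjusted p = 0.00831). IFITM1 was not called without DMSO 48 h replicate 1 (adjusted p = 0.0734). The higher ones were IRF1 (0.53 ± 0.14, adjusted p = 0.00941) and DTX3L (0.34 ± 0.10, adjusted p = 0.0201). IRF1 was not called without DMSO 48 h replicate 1, DMSO 4 h replicate 2 or ruxolitinib 48 h replicate 1 (adjusted p = 0.057 to 0.0783). DTX3L kept its call only without DMSO 4 h replicate 2 or ruxolitinib 48 h replicate 1, and lost it in the other 6 fits (adjusted p = 0.0511 to 0.107).

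For pacritinib, 4 effects were higher and 4 lower at 48 h, against 10.3% and 7.58% of all genes. IFI6 (-0.67 ± 0.10, adjusted p = 1.72e-05), EPSTI1 (-0.66 ± 0.15, adjusted p = 0.00261), IFITM3 (-0.48 ± 0.09, adjusted p = 0.000412) and IFITM2 (-0.38 ± 0.08, adjusted p = 0.00142) were lower. CMPK2 (0.52 ± 0.08, adjusted p = 2.03e-05), IRF1 (0.53 ± 0.14, adjusted p = 0.00587), GBP1 (0.66 ± 0.17, adjusted p = 0.00576) and DTX3L (0.37 ± 0.09, adjusted p = 0.00572) were higher. Without pacritinib 48 h replicate 1 the calls of IRF1 (adjusted p = 0.0837), GBP1 (0.43, adjusted p = 0.0925) and DTX3L (adjusted p = 0.0568) ended, and that of DTX3L also without pacritinib 4 h replicate 2 (adjusted p = 0.0815).

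For fedratinib, 0 effects were higher and 2 lower at 48 h, against 2% and 2.12% of all genes. EPSTI1 was lower (-0.86 ± 0.15, adjusted p = 0.000849), and so was SAMD9 (-0.45 ± 0.11, adjusted p = 0.0199). SAMD9 lost its call in 5 of 8 fits that drop a library, which were those without DMSO 4 h replicate 1, DMSO 4 h replicate 2, DMSO 48 h replicate 2, fedratinib 4 h replicate 2 or fedratinib 48 h replicate 1 (adjusted p = 0.0549 to 0.136). By edgeR, 0 effects were called higher and 0 lower for momelotinib, against 1.57% and 0.759% of all genes, with 6 at an unadjusted p under 0.05. The same counts of 0 and 0 were found for itacitinib, against 0% and 0.0124%, with 1 at an unadjusted p under 0.05. DESeq2 called 0 for both, with an adjusted p for only 4 of the 45 genes for itacitinib.

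**Figure D4:**
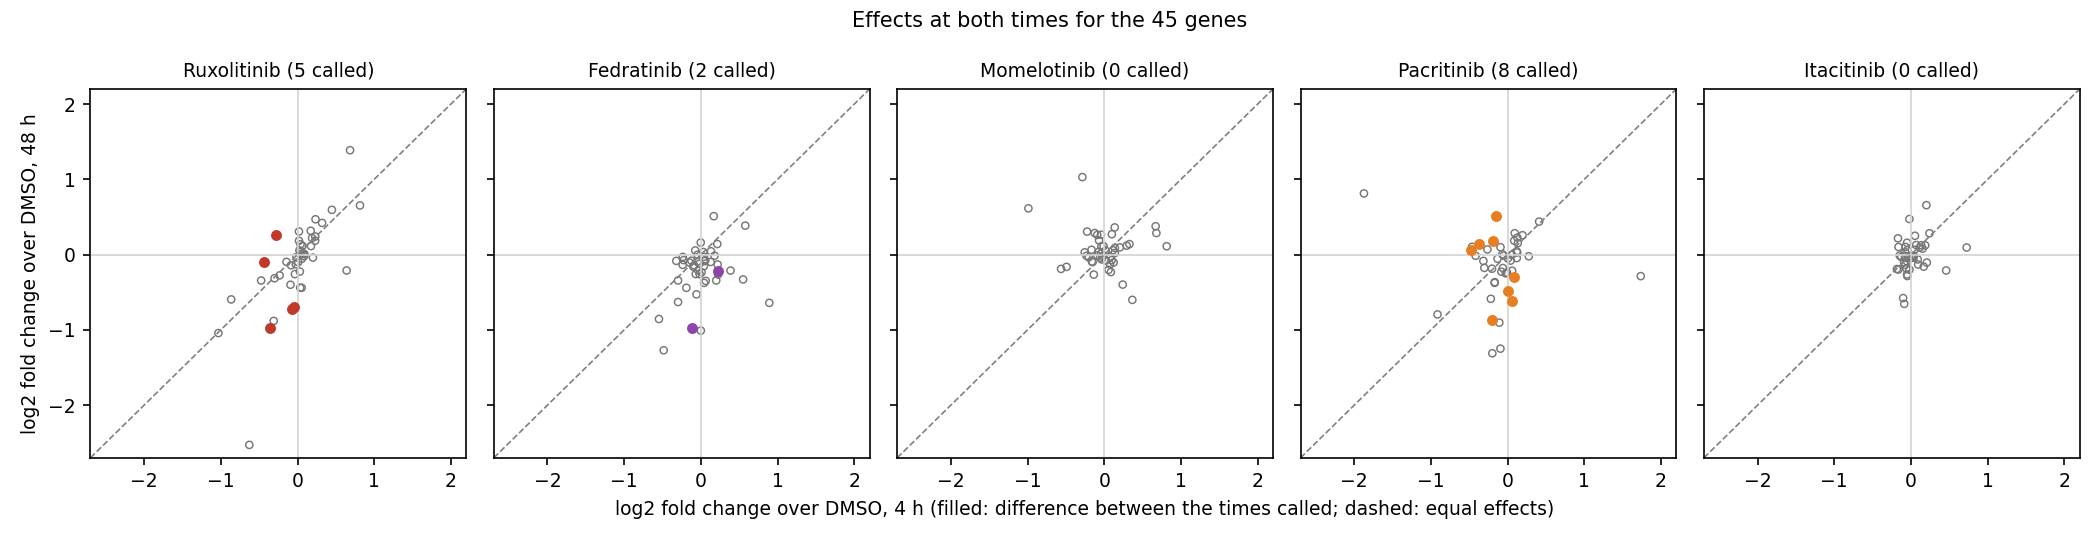
Log2 fold change over DMSO at 48 h (vertical) against 4 h (horizontal) for the 45 genes, 1 panel per inhibitor; filled points are genes whose effects at the 2 times differed at adjusted p under 0.05, and the dashed line marks equal effects. Filled are 5 genes for ruxolitinib, 2 for fedratinib and 8 for pacritinib, while momelotinib and itacitinib have 0.

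Setting ruxolitinib against the other inhibitors at the same dose and time tested the differences themselves. At 4 h, 1 gene was higher and 1 lower with ruxolitinib than with fedratinib (1.4% and 2.12% of all genes). The lower one was PARP9 (-0.38 ± 0.08, adjusted p = 0.00318) and the higher one IFIT2 (0.69 ± 0.18, adjusted p = 0.0218), and each lost its call in at least 2 of the 4 fits that drop a library (adjusted p = 0.0613 to 0.377). Against momelotinib, 0 were higher and 1 lower (0.355% and 0.367%), which was PARP9 (-0.32 ± 0.08, adjusted p = 0.0431). That call ended with any 1 of the 4 libraries left out (adjusted p = 0.074 to 0.412). Against itacitinib, 0 were higher and 2 lower (2.29% and 3.61%), PARP9 (-0.50 ± 0.08, adjusted p = 6.97e-05) and DTX3L (-0.29 ± 0.07, adjusted p = 0.00571), the last of which ended in 3 of the 4 fits that drop a library (adjusted p = 0.0578 to 0.16).

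Against pacritinib at 4 h, 7 genes were higher and 4 lower with ruxolitinib (14.5% and 11.1% of all genes). Held with each library left out were SAMD9L (0.70 ± 0.16, adjusted p = 0.00141), CMPK2 (0.44 ± 0.06, adjusted p = 5.78e-07) and SAMD9 (0.37 ± 0.08, adjusted p = 0.000871). Each was higher in both ruxolitinib libraries than in both pacritinib libraries. The other 8 calls each ended without at least 1 library (adjusted p = 0.056 to 0.398).

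At 48 h IFITM2 was lower and IFIT2 higher with ruxolitinib than with each of the other 4 inhibitors. Ruxolitinib had 10 higher and 5 lower genes than fedratinib (10.1% and 10.5% of all genes), 4 higher and 13 lower than momelotinib (10.3% and 10.7%), 8 higher and 7 lower than pacritinib (12.8% and 11.8%) and 4 higher and 7 lower than itacitinib (11.7% and 10.2%). IFITM2 was lower by 0.61 ± 0.06 on the log2 scale than with fedratinib, 0.68 ± 0.06 than with momelotinib, 0.43 ± 0.06 than with pacritinib and 0.58 ± 0.06 than with itacitinib (adjusted p = 9.84e-10, 1.04e-10, 1.42e-06 and 2.7e-09). IFIT2 was higher by 1.23 ± 0.18, 1.01 ± 0.18, 0.95 ± 0.18 and 1.29 ± 0.17 in the same order (adjusted p = 3.33e-06, 5.2e-05, 0.000117 and 7.59e-07). These 8 calls held with each library left out. IFITM1 and IFITM3 were also called lower with ruxolitinib than with each of the other 4 inhibitors. The log2 differences in the same order were -0.54, -0.94, -0.39 and -0.79 for IFITM1. For IFITM3 they were -0.62, -0.73, -0.22 and -0.50. Against pacritinib both genes lost their call in some fits that drop a library, and their other calls held.

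Other genes differed at 48 h from some of the inhibitors. Against fedratinib, ruxolitinib was higher in EPSTI1 (0.58 ± 0.12, adjusted p = 0.000313), IFIH1 (0.57 ± 0.11, adjusted p = 0.00012), IFIT3 (0.69 ± 0.11, adjusted p = 1.4e-05) and XAF1 (0.73 ± 0.17, adjusted p = 0.00182). Against momelotinib, it was higher in XAF1 (0.83 ± 0.17, adjusted p = 0.000466) and lower in BST2 (-2.37 ± 0.57, adjusted p = 0.00244). Against pacritinib, it was higher in IFI6 (0.35 ± 0.08, adjusted p = 0.000585), IFIH1 (0.46 ± 0.11, adjusted p = 0.00134) and IFIT3 (0.54 ± 0.11, adjusted p = 0.000323). Against itacitinib, PARP9 was lower (-0.31 ± 0.08, adjusted p = 0.00305), but not in 1 of the 4 fits that drop a library (adjusted p = 0.1). The calls named before it in this paragraph held with each library left out.

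With ruxolitinib at 48 h, 2 of the 6 receptor genes were higher and 0 lower, and 2 of the 7 restraining genes were higher and 3 lower, when 12.5% of all genes were higher and 13.2% lower. This was not particular to ruxolitinib. With pacritinib at 48 h, 50% of the receptor genes were higher, against 8.26% of all genes. With pacritinib at 4 h, 33.3% of the receptor and 42.9% of the restraining genes were lower, against 17.4% of all genes. STAT2 was called with no inhibitor. The receptor chain IFNAR1 had 117 and 107 CPM with ruxolitinib at 48 h, against 94.3 and 98.1 CPM with DMSO, and was called higher by 0.22 on the log2 scale. Of the restraining genes, SOCS1 and SOCS3, which are induced by STATs and block JAKs, were the ones most lowered with ruxolitinib at 48 h. SOCS1 had 2.37 and 2.49 CPM with ruxolitinib at 48 h, against 9.06 and 7.5 CPM with DMSO.

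A second list of 49 tested interferon-responsive genes, kept apart from the 45, also held calls in both directions. With ruxolitinib at 48 h, 15 were higher and 9 lower (median 0.07), against 0 and 5 for fedratinib (median -0.04), 0 and 1 for momelotinib (median 0.05), 4 and 9 for pacritinib (median 0.01) and 0 and 0 for itacitinib. The 15 higher genes of ruxolitinib were 30.6% of the list and the 9 lower ones 18.4%, against 12.5% and 13.2% of all genes, and the 45 had 13.3% higher and 20% lower. The lower genes of fedratinib and pacritinib were 10.2% and 18.4% of the list, against 4.04% and 10.1% of all genes. At 4 h it was 2 and 5 with ruxolitinib, 0 and 0 with fedratinib, 2 and 3 for momelotinib, 7 and 12 for pacritinib and 0 and 0 for itacitinib. The lower genes of ruxolitinib and pacritinib at 4 h were 10.2% and 24.5% of the list, against 5.04% and 17.4% of all genes. The difference between the lists was not tested. GBP5, a further guanylate-binding protein, had 0.226 and 0.421 CPM with ruxolitinib and 0.246 and 0.315 CPM with pacritinib, against 1.17 and 1.08 CPM with DMSO at 48 h (-1.80 ± 0.43, adjusted p = 0.00163, and -1.98 ± 0.43, adjusted p = 0.00132). The death ligand TNFSF10 (TRAIL) had 1.13 and 0.751 CPM with ruxolitinib and 0.982 and 1.5 CPM with fedratinib, against 2.12 and 2.78 CPM with DMSO at 48 h (-1.37 ± 0.28, adjusted p = 0.0003, and -0.98 ± 0.26, adjusted p = 0.018). The other way went DDX60L, a helicase-like gene, with 47.8 and 49.7 CPM under ruxolitinib, against 23.3 and 24.5 CPM under DMSO at 48 h (1.03 ± 0.08, adjusted p = 1.23e-11). PSMB9, an immunoproteasome subunit, had 80.4 and 83.0 CPM with ruxolitinib, against 50.2 and 47.8 CPM with DMSO (0.74 ± 0.06, adjusted p = 2.6e-11). So within this list too, some genes fell while others rose under the same inhibitor.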

How the data were processed

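The authors deposited 1 table of raw read counts per gene. The submitters' processing notes name bcl2fastq, STAR 2.5.1a, edgeR and the build GRCh38. How the counts used strand, and the counting tool, is not given in the sources used here. After 130 repeated IDs were dropped, genes were filtered with filterByExpr and scaled by TMM, and the counts were tested with edgeR 4.0.16 (quasi-likelihood, 1 mean per group over all 24 libraries, common biological coefficient of variation 0.0468) in R 4.3.3. CPM use the effective library size. Levels per kb use the union of GENCODE 29 exons, and overlapping genes come from the same annotation. Benjamini-Hochberg adjustment of p-values ran over the 16076 genes, and log2 fold changes are inhibitor over DMSO. The members and gene lists were chosen with earlier results of these data known. Values are given in full for the members called most often, up to 16, and for up to 3 leading calls per direction and comparison. Alternatives were DESeq2 1.42.0, RLE scaling, no filter, a floor of 1 CPM in 6 libraries, fits per time point, a replicate block and each library left out. The procedure was tested on simulated data. Replicate numbers did not pair libraries: correlations of same-numbered deviations were -0.038 to 0.048 over 66 pairs of groups.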

Additional observations from a re-analysis of the deposited data

Results flagged for a closer look

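In 15 cases the effect of an inhibitor on a gene differed between 48 h and 4 h by the test of the difference itself, given here as the log2 effect at 48 h minus that at 4 h. For ruxolitinib these were IFITM2 (-0.65), IFITM3 (-0.64), IFITM1 (-0.62), DTX3L (0.34) and IRF1 (0.53). For fedratinib they were EPSTI1 (-0.86) and SAMD9 (-0.45). For pacritinib they were IFI6 (-0.67), EPSTI1 (-0.66), IFITM3 (-0.48), IFITM2 (-0.38), DTX3L (0.37), CMPK2 (0.52), IRF1 (0.53) and GBP1 (0.66). The signal recognition particle RNA shares, which also differed between groups, are given above, and their part was not tested.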

How the results depend on the processing

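Of the 52 calls against DMSO, 44 were kept under every alternative that could be run for them, 20 of these also with each library left out, and 0 turned direction. Fedratinib at 4 h gave 2 called genes in place of 0 without the low-count filter and 2 with the replicate block (IFITM3 and DTX3L, both lower). DMSO at 48 h against 4 h gave 2 in place of 1 without the filter and 3 with the replicate block. Ruxolitinib against momelotinib at 4 h gave 0 in place of 1 with the libraries of 1 time point. The causes were not tested. With the replicate block no other count of calls moved by over 1.5 times. With it, 5 results against DMSO passed that had not: IFITM3 and DTX3L above, IRF1 with ruxolitinib at 4 h, ADAR with pacritinib at 4 h and DDX58 with ruxolitinib at 48 h. With 1 library left out, its lone partner being taken to vary as the remaining groups do, the calls against DMSO at 4 h numbered 2 to 3 for ruxolitinib (5 with all), 0 to 3 for momelotinib (2) and 5 to 8 for pacritinib (10). At 48 h they numbered 2 to 5 for fedratinib (8), 0 to 1 for momelotinib (1) and 7 to 10 for pacritinib (11), and for DMSO between the times 0 to 1 (1). For the differences between the times they numbered 2 to 5 for ruxolitinib (5), 1 to 2 for fedratinib (2), 0 to 1 for momelotinib (0) and 5 to 9 for pacritinib (8). For ruxolitinib at 4 h they numbered 0 to 1 against fedratinib (2), 0 against momelotinib (1), 6 to 9 against pacritinib (11) and 1 to 2 against itacitinib (2). At 48 h these were 9 to 12 against fedratinib (15), 8 to 10 against momelotinib (17), 9 to 12 against pacritinib (15) and 7 to 12 against itacitinib (11). The alternatives were run for the 45 genes only. Depth limits the 7 genes under 1 CPM most, and a replicate number names a library and pairs none.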
